A study of Mus musculus with 20 samples.

Results

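The collagens, laminins and matrix glycoproteins make up most of the fibres, sheets and soluble linkers between cells. Of the 16810 genes in the deposited table, 72 belonged to this set. They were the 43 collagen chain genes and the 11 laminin chain genes that were found by the form of their symbols, together with 18 listed glycoproteins and proteoglycans. All 72 had at least 1 CPM in at least 2 samples.

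RNA was sequenced from cells sorted by flow cytometry for high eGFP from the spinal cord of CX3CR1+/eGFP heterozygous mice, adult males on a C57BL/6 background. The genotype was the same in every group, controls included. Non-injured (NI) mice had no lesion and gave 3 samples, taken from a 1 cm thoracic segment. The other mice had a lesion at the lower thoracic level, either a lateral hemisection (HS) or a full transection (FT), and the 1 cm around it was taken at 72 h, 1 week or 2 weeks. There were 3 FT samples for every time, and for HS 3, 2 and 3 samples in order of time. The *Cx3cr1* locus drives eGFP in microglia and also in blood monocytes, so that the gate does not exclude macrophages that entered from the blood. The methods name more animals than samples, and how many animals each sample held is not given in the sources used here.

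Matrix proteins are secreted and assembled outside the cell. Fibrillar collagens give tensile strength, collagen IV and the laminins form basement membranes that nidogens and perlecan join, and matricellular proteins such as thrombospondins and periostin bind both matrix and cell receptors without being structural themselves. In the spinal cord the fibroblasts of meninges and vessels are the best known source of fibrillar collagen after a lesion, while resting microglia are known for high *Sparc*, a secreted protein that binds collagen.

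Values are normalised read counts in CPM, reads scaled to an effective library size that makes samples comparable. Between 3872918 and 34099232 reads per sample lay on the 16810 genes, and 1 read was worth 0.0330 to 0.292 CPM. The 11 microglia markers summed to 19430 to 39680 CPM in every sample. The 16 fibroblast and mural cell markers that were analysed summed to 33.0 to 38.0 CPM in NI, and the 15 endothelial markers to 114 to 191 CPM. FT 1 week replicate 1 stood apart, since it was the highest sample of its group for 59 of the 72 genes (81.9%), against 46.7% of all genes. It also had the lowest microglia sum of all samples (19430 CPM, against 39680 and 33590 CPM in replicates 2 and 3). Its endothelial sum was 115 CPM against 46.5 and 55.6 CPM, while its astrocyte and oligodendrocyte lineage sums were the lowest of its group. HS 72 h replicate 1, HS 2 weeks replicate 1 and FT 72 h replicate 1 stood apart in single genes or marker sums, given beside the results. Without these 4 samples the matrix genes called against NI numbered 9 (72 h), 3 (1 week) and 5 (2 weeks) for HS, and 9, 5 and 6 for FT in the same order. FT 2 weeks replicate 1 was kept there, though it also stood apart. Its oligodendrocyte lineage sum was 385 CPM, against 2447 and 1438 CPM in replicates 2 and 3. Its fibroblast and mural cell sum was 101 CPM (57.6 and 74.2 CPM in the others), and 19.8 CPM without *Cspg4* (26.9 and 31.3 CPM). In such bulk samples, fewer cells of a type and less RNA per cell cannot be told apart. A gene was differentially expressed (DE) at an adjusted p under 0.05 over all 16810 genes (limma, Benjamini-Hochberg) and a change of at least 2-fold. SE is the standard error of a log2 difference.

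In NI nearly all matrix genes were low for their length. *Sparc* (chromosome 11, 55394500 to 55423183 on GRCm38) led with 1444 CPM per kb of exon. *Tgfbi*, which encodes a secreted adhesion protein that binds collagen and integrins, followed with 23.4 CPM per kb, and *Col27a1*, a chain of a short fibrillar collagen best known from cartilage, with 11.9 CPM per kb. *Thbs1* (2.897), *Dcn* (2.53), *Col15a1* (2.499), *Nid2* (2.01), *Ecm1* (1.53), *Lamc1* (1.27) and *Col7a1* (1.198) were the other genes with at least 1 CPM per kb. The remaining 62 genes had less, down to 0.104 CPM per kb for *Lamb3*, a chain of an epithelial laminin. Over all 20 samples, 52 of the 72 had a mean under 5 CPM and 16 had 3 reads or fewer in at least 1 sample, so that small changes in them were not detectable at this depth.

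**Figure D1:**
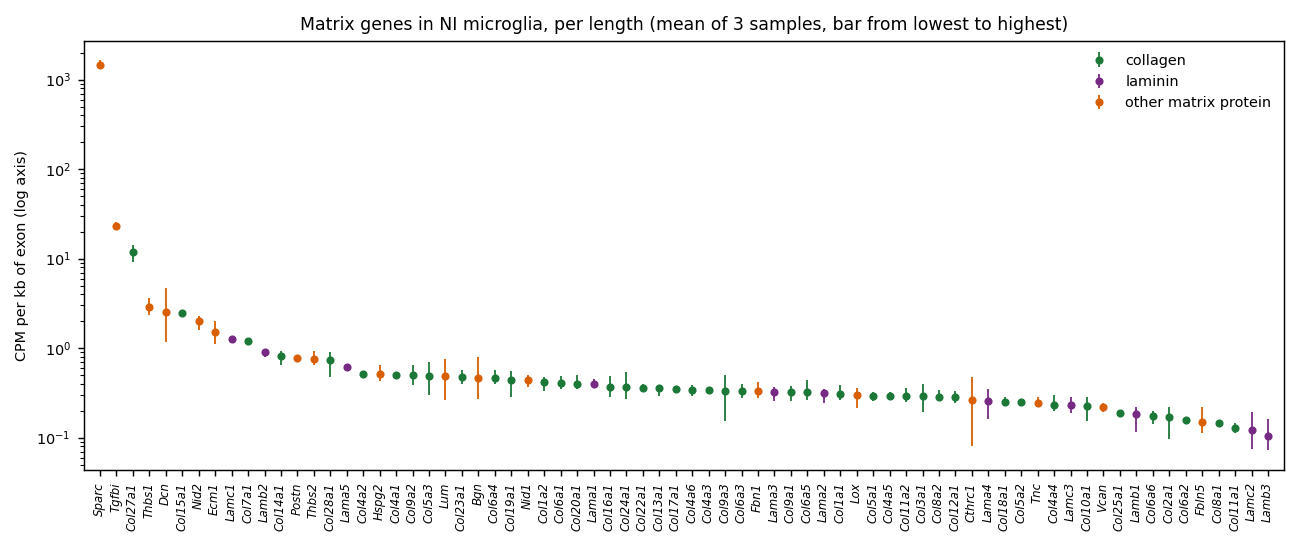
Level of each of the 72 matrix genes in the 3 NI samples, in CPM per kb of exon on a log axis. The dot is the mean and the bar runs from the lowest to the highest sample. *Sparc*, *Tgfbi* and *Col27a1* stood above the rest, and 62 genes had a mean below 1 CPM per kb.

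*Sparc* stayed high throughout. It had 6244, 4943 and 5222 CPM in NI, and over all samples it lay between 4798 and 9194 CPM. Its log2 difference from NI was between -0.05 and 0.52 in the 6 comparisons, and none passed the test (the lowest adjusted p was 0.264, at 1 week after FT).

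The question of the comparisons with NI was which matrix genes changed in these cells after each lesion and when. At 72 h after HS, 11 of the 72 genes were DE, 8 higher and 3 lower, which was 15.3% of the set against 13.4% of all genes (9.08% higher and 4.31% lower). At 72 h after FT, 7 were DE, 5 higher and 2 lower (9.72% against 12.2%, of which 8.14% higher and 4.09% lower). At 1 week 3 were DE after HS, all higher (4.17% against 2.18%, of which 1.7% higher and 0.482% lower), and 3 after FT, 2 higher and 1 lower (4.17% against 4.05%, of which 2.86% higher and 1.2% lower). The count at 1 week after HS was 0 without either of its 2 samples. At 2 weeks 4 were DE after HS, 3 higher and 1 lower (5.56% against 3.23%, of which 2.43% higher and 0.797% lower), and 5 after FT, 3 higher and 2 lower (6.94% against 4.88%, of which 3.53% higher and 1.36% lower). The shares of matrix genes called lay near those of all genes in most comparisons. Samples of the injured group did not overlap NI for 30 genes at 72 h after HS (49% of all genes), 22 at 1 week (37.3%) and 23 at 2 weeks (24.8%), and after FT for 22 (44.9%), 11 (21.5%) and 21 (30.7%).

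In all, 16 genes were DE in at least 1 of the 6 comparisons, and 56 were DE in none. All 6 share the same 3 NI samples. *Ecm1* was the only matrix gene DE in all 6. The matching shares of all genes over the 6 comparisons were not counted. These numbers therefore do not set the matrix genes apart from other genes. The median log2 difference of the 72 genes was -0.07 and -0.10 at 72 h after HS and FT, where that of all genes was -0.11 and -0.09. At 1 week the medians were 0.07 after HS and -0.05 after FT (all genes 0.02 and -0.03), and at 2 weeks -0.20 and -0.13 (all genes -0.01 and -0.02). The column totals differed, with 777426 to 830481 CPM in NI and 878070 to 1202186 CPM after injury. With every column scaled to 1 total the median of all genes moved to between -0.17 and -0.52, and the split of members became 5 higher and 11 lower at 72 h after HS, 4 and 7 at 72 h after FT, 2 and 0 at 1 week after HS, 2 and 2 at 1 week after FT, 3 and 1 at 2 weeks after HS, and 3 and 5 at 2 weeks after FT. The changes below are on the deposited scale, and the calls against NI that this scaling ended are named.

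**Figure D2:**
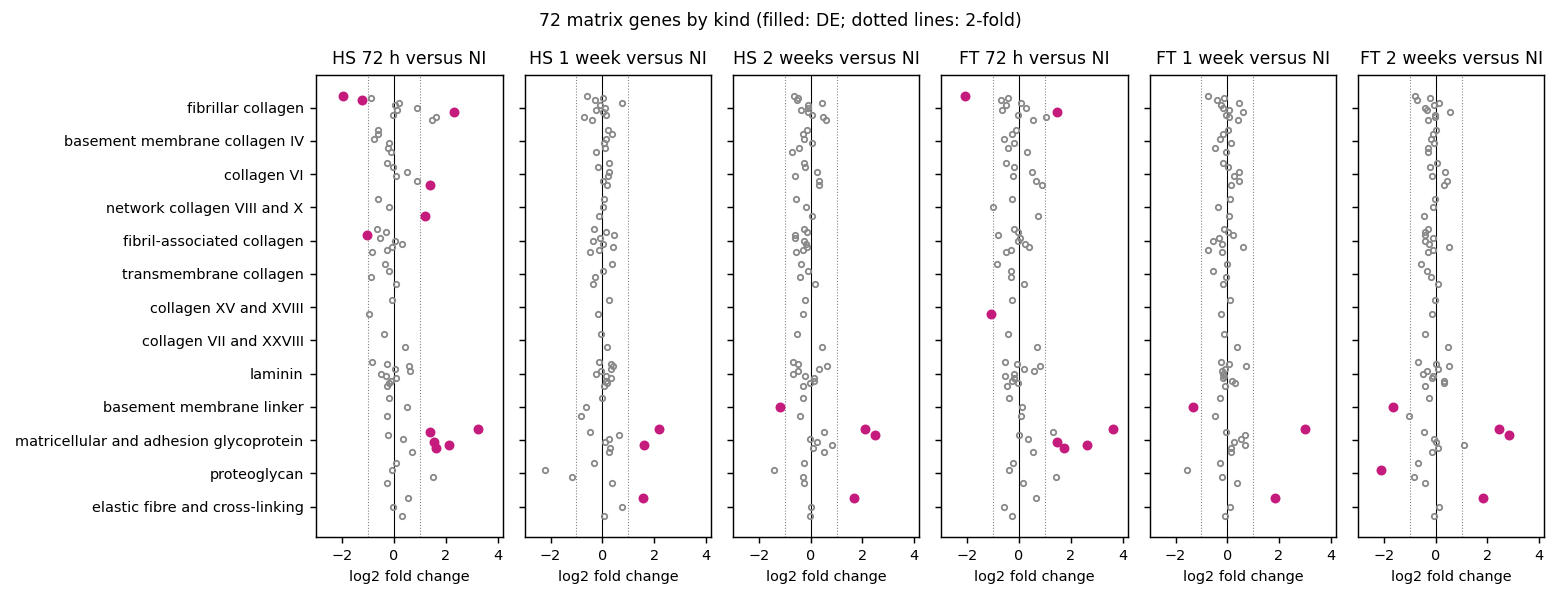
Log2 fold change from NI of the 72 matrix genes in the 6 comparisons, by kind of gene. Filled points are DE (adjusted p under 0.05 and at least 2-fold), open points are not, and dotted lines mark 2-fold. The matricellular glycoproteins held 5 of the 8 higher members at 72 h after HS and 4 of the 5 after FT, while no laminin and no chain of collagen IV is filled in any panel.

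The adhesion glycoproteins *Tgfbi*, *Thbs1* and *Thbs2* rose at 72 h after both lesions. *Tgfbi* (chromosome 13, 56609523 to 56639562) had 97.2, 89.1 and 78.9 CPM in NI, 302, 252 and 268 CPM after HS and 689.9, 162 and 226 CPM after FT. All 6 injured samples lay above all NI samples, and FT replicate 1 was far above the rest. The log2 rise was 1.63 after HS (SE 0.36, adjusted p = 0.00184) and 1.73 after FT (SE 0.36, adjusted p = 0.00122). Without FT 72 h replicate 1 the rise after FT was 1.11 (adjusted p = 0.00677). At 1 and 2 weeks *Tgfbi* lay between 60.2 and 131 CPM and was not DE.

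*Thbs1* (chromosome 2, 118111876 to 118127133) encodes thrombospondin 1, a secreted glycoprotein that binds CD36 and CD47 and can activate latent TGF-beta. It had 22.3, 16.3 and 14.1 CPM in NI, 64.6, 88.95 and 82.6 CPM at 72 h after HS and 272, 62.5 and 74.3 CPM at 72 h after FT. The rise was 2.14 (SE 0.36, adjusted p = 0.000156) and 2.61 (SE 0.36, adjusted p = 1.93e-05) on the log2 scale, and the latter was 1.95 without FT 72 h replicate 1 (adjusted p = 1.8e-05). *Thbs1* had 56.5 and 50.5 CPM at 1 week after HS, still above all NI samples. It was DE there (log2 1.60, SE 0.41, adjusted p = 0.0332), but no longer without NI replicate 2 or 3 (adjusted p = 0.113 and 0.131), without HS 1 week replicate 1 or 2 (0.238 and 0.186), or with every column scaled to 1 total. At 1 week after FT it had 23.1, 31.2 and 30.99 CPM and was not DE. At 2 weeks it had 23.5, 44.7 and 28.02 CPM after HS and 31.6, 41.7 and 38.6 CPM after FT, and was not DE either. An exon of *Thbs1* shares 208 bases with a noncoding gene on the other strand, and the library kit named in the labels does not mark strand, so that reads there cannot be told apart.

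*Thbs2* (chromosome 17, 14665500 to 14694235) encodes thrombospondin 2, a close relative, and it was DE at 72 h only. It had 6.49, 4.504 and 4.89 CPM in NI, 24.1, 13.3 and 13.7 CPM at 72 h after HS and 16.97, 15.2 and 13.98 CPM at 72 h after FT, with no overlap. The log2 rise was 1.56 (SE 0.29, adjusted p = 0.000414) and 1.46 (SE 0.29, adjusted p = 0.000847). At 1 and 2 weeks its log2 difference from NI was between 0.03 and 0.26, and not DE. The summed level of the 9 monocyte markers was also higher in these samples, with 53.6 to 67.3 CPM in NI, 266 to 350 CPM at 72 h after HS and 260 to 675 CPM at 72 h after FT. FT 72 h replicate 1, the highest sample for *Tgfbi*, *Thbs1* and *Ecm1*, had the sum of 675 CPM. Of these 9 markers 5 were DE at 72 h after HS and 7 after FT, all higher. Their part in the rise of the 3 genes was not tested.

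*Ecm1* (chromosome 3, 95734147 to 95739569) encodes a secreted glycoprotein that binds perlecan and other matrix proteins, and it had the largest rise of the 72 genes at 72 h and at 1 week after both lesions. It had 2.801, 5.02 and 3.74 CPM in NI, and no injured sample overlapped these. At 72 h it had 38.97, 42.6 and 38.1 CPM after HS and 137, 30.4 and 33.2 CPM after FT. The log2 rise was 3.24 (SE 0.39, adjusted p = 2.69e-06) and 3.62 (SE 0.39, adjusted p = 6.25e-07), and without FT 72 h replicate 1 the latter was 2.92 (adjusted p = 3.29e-07).

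*Ecm1* stayed high later. At 1 week it had 19.1 and 18.3 CPM after HS and 23.3, 42.2 and 37.9 CPM after FT, and the log2 rise was 2.17 (SE 0.43, adjusted p = 0.00511) and 2.99 (SE 0.39, adjusted p = 2.59e-05). The 9 monocyte markers summed to 153 to 177 CPM and 103 to 128 CPM in these groups. With only 1 sample left at 1 week after HS the call was lost (adjusted p = 0.0785 without replicate 1 and 0.0651 without replicate 2), with log2 rises of 2.14 and 2.20. At 2 weeks it had 20.7, 12.4 and 21.98 CPM after HS and 28.5, 21.2 and 19.5 CPM after FT, with log2 rises of 2.11 (SE 0.39, adjusted p = 0.00147) and 2.45 (SE 0.39, adjusted p = 0.000192). The monocyte markers summed to 149 to 163 CPM at 2 weeks after HS and to 106 to 174 CPM after FT. Of the 9 monocyte markers, *Itga4* and *Vim* were DE and higher at 1 week after HS. Only *Vim* was DE at 1 week after FT and at 2 weeks after both lesions, and it was higher. The paper reports raised *Vim* in microglia at every time after both lesions. The part of monocytes in the level of *Ecm1* was not tested.

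*Postn* and *Lox* rose late. *Postn* (chromosome 3, 54361109 to 54391037) encodes periostin, which binds collagen and integrins. It had 6.97, 6.18 and 6.91 CPM in NI, 6.97, 5.18 and 4.92 CPM at 72 h after HS and 6.86, 5.55 and 7.57 CPM at 72 h after FT, where the groups overlapped. At 1 week it had 11.2 and 9.98 CPM after HS and 8.82, 12.4 and 12.6 CPM after FT, all above NI but not DE (log2 0.62 and 0.70, adjusted p = 0.297 and 0.0874). At 2 weeks it reached 35.9, 52.4 and 34.1 CPM after HS and 72.5, 40.9 and 42 CPM after FT. The log2 rise was 2.50 (SE 0.24, adjusted p = 3.77e-07) and 2.81 (SE 0.24, adjusted p = 4.54e-08), the largest of the 72 genes at that time after both lesions. The call held under every alternative and without any single sample.

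*Lox* (chromosome 18, 52516067 to 52529867) encodes lysyl oxidase, the enzyme that cross-links collagen and elastin. It was low, with 1.01, 1.54 and 1.73 CPM in NI, 3.01, 1.51 and 2.46 CPM at 72 h after HS and 3.87, 1.46 and 2.58 CPM at 72 h after FT, and was not DE at 72 h. At 1 week it had 4.902 and 5.29 CPM after HS and 4.89, 6.89 and 7.65 CPM after FT, with log2 rises of 1.56 (SE 0.33, adjusted p = 0.0087) and 1.85 (SE 0.30, adjusted p = 0.000297). The call at 1 week after HS was lost without NI replicate 1 (log2 1.39, adjusted p = 0.0511) and without HS 1 week replicate 1 or 2 (log2 1.61 and 1.505, adjusted p = 0.0885 and 0.122). At 2 weeks it had 6.24, 5.99 and 4.71 CPM after HS and 7.96, 5.14 and 6.11 CPM after FT, with log2 rises of 1.68 (SE 0.30, adjusted p = 0.000965) and 1.84 (SE 0.30, adjusted p = 0.000237). No sample at 1 or 2 weeks overlapped NI.

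**Figure D3:**
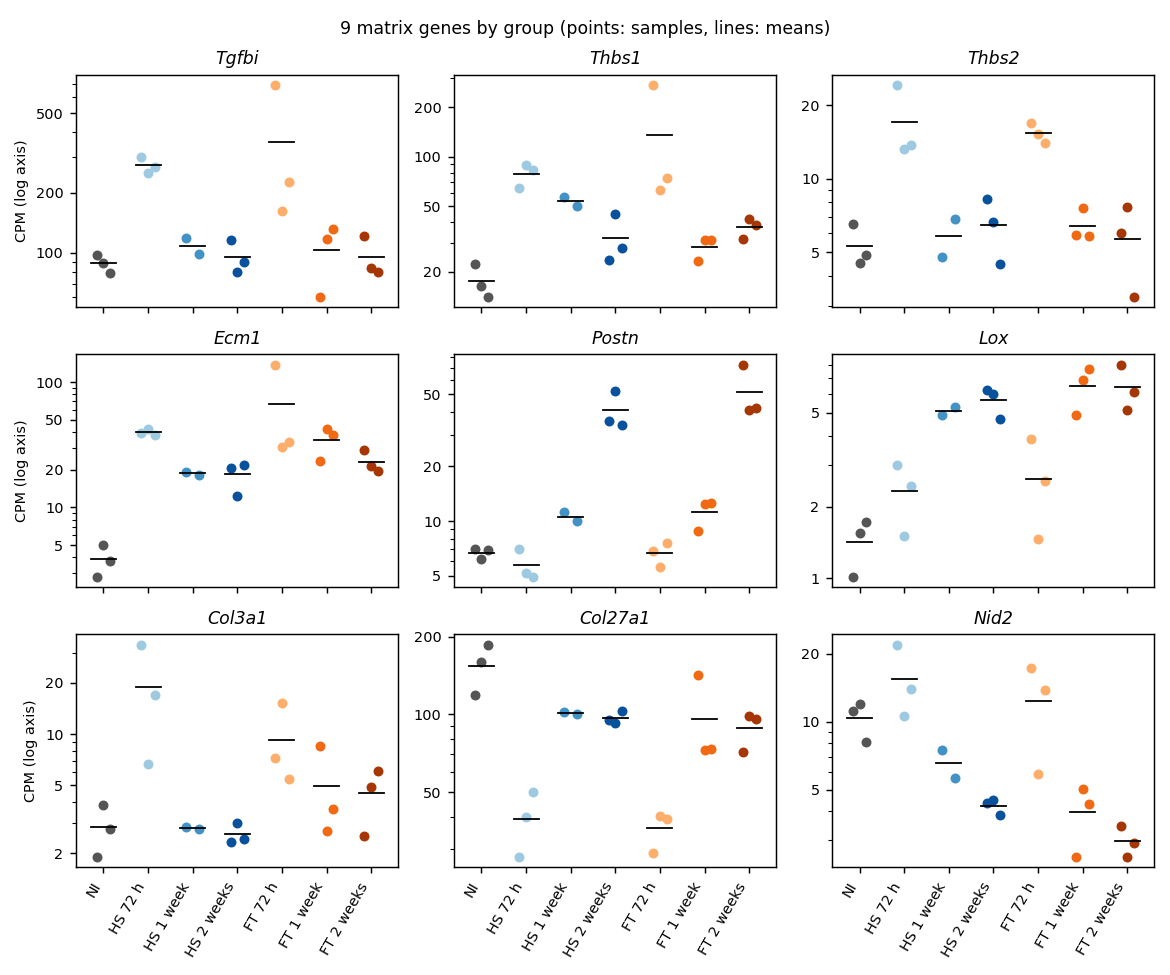
CPM of 9 matrix genes in each of the 20 samples, on log axes, by group. Points are samples and lines are group means. *Tgfbi*, *Thbs2* and *Col3a1* are highest at 72 h, *Postn* at 2 weeks, *Ecm1* lies above NI in every injured group, and *Col27a1* is lowest at 72 h.

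The stretches before the start of 4 DE genes are shown. *Ecm1* was DE at every time after both lesions, *Postn* was DE at 2 weeks, and *Thbs2* and *Col3a1* were DE at 72 h only. These genes are examples and do not stand for all genes of a time. Each stretch is the 250 bases before the start in the RefSeq promoter table of GRCm38.p6, read along the gene's strand. Capitals mark exact matches on either strand to a TATA box (TATAAA), an SP1 motif (GGGCGG), an AP-1 motif (TGANTCA) or a PU.1 motif (GAGGAAG), and no match overlaps another. The windows of *Ecm1* and *Postn* lie at chr3:95739570-95739819 on the minus strand and at chr3:54360857-54361106 on the plus strand. Of 2 starts of *Postn* in the table, the one nearest to the start in GENCODE was used. The windows of *Thbs2* and *Col3a1* lie at chr17:14694263-14694512 on the minus strand and at chr1:45311288-45311537 on the plus strand.
Ecm1: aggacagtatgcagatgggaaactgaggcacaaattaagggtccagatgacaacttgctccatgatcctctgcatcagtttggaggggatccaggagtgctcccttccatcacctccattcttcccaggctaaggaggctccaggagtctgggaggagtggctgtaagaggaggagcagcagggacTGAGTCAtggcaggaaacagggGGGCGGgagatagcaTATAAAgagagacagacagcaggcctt
Postn: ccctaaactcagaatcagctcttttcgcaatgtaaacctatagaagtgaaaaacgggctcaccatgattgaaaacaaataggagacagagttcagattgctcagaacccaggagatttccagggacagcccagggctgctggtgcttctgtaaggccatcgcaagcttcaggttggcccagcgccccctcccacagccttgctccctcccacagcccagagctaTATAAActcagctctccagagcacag
Thbs2: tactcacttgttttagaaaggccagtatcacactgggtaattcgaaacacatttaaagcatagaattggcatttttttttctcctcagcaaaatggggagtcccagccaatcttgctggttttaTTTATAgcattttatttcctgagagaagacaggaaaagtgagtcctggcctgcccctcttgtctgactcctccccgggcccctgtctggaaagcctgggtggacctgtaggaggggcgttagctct
Col3a1: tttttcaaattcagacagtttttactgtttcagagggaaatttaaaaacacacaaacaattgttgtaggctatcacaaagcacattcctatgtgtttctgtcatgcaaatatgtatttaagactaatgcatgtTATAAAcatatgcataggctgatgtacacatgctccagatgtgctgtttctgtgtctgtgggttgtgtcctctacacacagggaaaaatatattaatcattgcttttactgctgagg

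*Ecm1* and *Postn* both held TATAAA close to the start, with its first base 27 and 26 bases before it, while *Thbs2* held it on the opposite strand 126 bases and *Col3a1* 117 bases before the start. The window before the other start of *Postn* in the table (chr3:54359017-54359266) held none of the 4 motifs. TATAAA was found somewhere in 12.4% of the 32851 stretches of this length in the table, and for 9 of the 52 matrix genes in it (17.3%). The first share counts stretches and the other counts genes with a match before any of their starts, so they are not alike. Counted per gene in the same way, the SP1 motif was found for 61.5%, AP-1 for 3.85% and PU.1 for 21.2% of the 52. *Ecm1* also held an SP1 motif 42 bases and an AP-1 motif 64 bases before the start, which 32.7% and 6.75% of all stretches hold. No PU.1 motif (10.6% of all) was in these 4 windows. Among other DE genes, the window of *Col8a1* (higher at 72 h after HS) held SP1 motifs but no TATAAA. That of *Col11a2* held TATAAA 143 bases before the start, and those of *Col15a1* and *Col27a1* held no TATAAA. The table has 52 of the 72 genes, and 11 of the 16 that were DE. *Thbs1*, *Lox*, *Nid2*, *Dcn* and *Cthrc1* were not among them. Only windows without bases of an annotated exon were described, and the DE genes *Tgfbi*, *Col6a1* and *Col19a1* had no such window. A match of letters is a description and not a binding site.

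Among the fibrillar collagens, *Col3a1* rose at 72 h and *Col27a1* fell. *Col3a1* (chromosome 1, 45311538 to 45349706), which assembles with collagen I in soft tissue, had 1.91, 3.86 and 2.78 CPM in NI, 33.3, 6.69 and 17.02 CPM at 72 h after HS and 7.24, 15.2 and 5.43 CPM at 72 h after FT. The groups did not overlap NI, but HS replicate 1 was far above replicate 2. The log2 rise was 2.32 (SE 0.47, adjusted p = 0.000851) and 1.46 (SE 0.47, adjusted p = 0.0266). Without HS 72 h replicate 1 the rise after HS was 1.79 (adjusted p = 0.0103). The rise after FT was no longer called without NI replicate 1 or 3 or FT 72 h replicate 2 (log2 1.25, 1.47 and 1.06, adjusted p = 0.0983, 0.0656 and 0.139), or with every column scaled to 1 total. At 1 and 2 weeks *Col3a1* was not DE.

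Both chains of collagen I varied widely between samples of a group. *Col1a2* had 5.601, 5.92 and 4.12 CPM in NI, 31.3, 9.42 and 16.8 CPM at 72 h after HS and 15.4, 14.3 and 6.5 CPM at 72 h after FT. All 6 of these injured samples lay above NI, but the log2 differences of 1.64 (adjusted p = 0.104) and 1.06 (adjusted p = 0.312) did not pass the test. At 1 week it had 3.404 and 2.65 CPM after HS and 11.04, 4.33 and 3.08 CPM after FT. By 2 weeks it had 53.8, 3.21 and 1.93 CPM after HS and 3.18, 5.66 and 6.95 CPM after FT, so that HS 2 weeks replicate 1 alone was the highest of all samples. The same sample had 30.3 CPM of *Col1a1*, where replicates 2 and 3 had 0.428 and 1.33 CPM, but only 2.34 CPM of *Col3a1*.

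*Col6a1*, *Col8a1*, *Cthrc1* and *Bgn* were highest of all 20 samples in HS 72 h replicate 1. *Col6a1*, a chain of beaded filaments, had 2.15, 1.54 and 1.73 CPM in NI and 7.83, 3.67 and 5.74 CPM at 72 h after HS (log2 1.39, SE 0.30, adjusted p = 0.00145), a call that was lost with every column scaled to 1 total (log2 0.97). After FT at 72 h it had 3.62, 5.84 and 2.404 CPM (log2 0.89, adjusted p = 0.0345, below the fold limit). *Col8a1*, a chain of network collagen VIII, had 1.13, 1.16 and 1.15 CPM in NI, 5.52, 1.98 and 3.08 CPM at 72 h after HS and 2.75, 2.92 and 1.34 CPM at 72 h after FT. Its call after HS (log2 1.19, SE 0.38, adjusted p = 0.0248) was lost without any NI sample (adjusted p = 0.0561 to 0.0645), without HS 72 h replicate 1 (log2 0.85, adjusted p = 0.153), with 1 CPM added and with every column scaled to 1 total.

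*Cthrc1*, which encodes a secreted protein of activated fibroblasts, had 0.358, 0.129 and 0.767 CPM in NI, 6.57, 1.04 and 0.615 CPM at 72 h after HS and 3.49, 1.17 and 1.07 CPM at 72 h after FT. The call after HS (log2 1.38, SE 0.50, adjusted p = 0.0444), in overlapping groups, rested on replicate 1, without which the log2 difference was 0.57 (adjusted p = 0.353), and it was lost without any of 6 other samples as well (NI replicates 1 and 2, both HS 1 week samples and FT 2 weeks replicates 2 and 3, adjusted p = 0.0509 to 0.165) and with every column scaled to 1 total. *Bgn*, a small proteoglycan that binds collagen, had 2.03, 4.89 and 1.63 CPM in NI, 30.3, 4.33 and 4.1 CPM at 72 h after HS and 10.98, 13.7 and 3.03 CPM at 72 h after FT, and was not DE against NI. It and *Col1a1* were named after their values were seen. Its log2 differences were 1.52 (adjusted p = 0.0738) and 1.44 (adjusted p = 0.0981).

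The fibroblast and mural cell markers were high beside these genes in HS 72 h replicate 1 and in FT 1 week replicate 1. The list without *Cspg4* summed to 30.5 to 34.6 CPM in NI, to 53.9 CPM in HS 72 h replicate 1, to 26.5 and 29.5 CPM in replicates 2 and 3 of HS 72 h, and to 31.5 to 37.1 CPM at 72 h after FT. At 1 week after FT it was 38.3 CPM in replicate 1 and 23.1 and 23.2 CPM in replicates 2 and 3, and *Col1a1* (7.11, 1.78 and 1.58 CPM), *Col3a1* (8.52, 2.71 and 3.63 CPM) and *Bgn* (3.56, 1.32 and 2.05 CPM) were likewise highest in replicate 1. At 1 week after HS the sum was 26.1 and 31.3 CPM. Of the 16 markers, *Cspg4* and *Tagln* were DE and higher at 72 h after both lesions, *Cygb* was DE and lower at 72 h after FT (log2 -1.11), and *Foxc1* was DE and lower at 2 weeks after HS (log2 -1.28). The median log2 difference of the list was -0.12 at 72 h after HS and -0.04 at 72 h after FT. *Tagln* went from 1.52 CPM in NI to 6.02 and 7.55 CPM at 72 h after HS and FT. The defining receptors *Pdgfra* and *Pdgfrb* had 3.24 and 2.07 CPM in NI and 1.58 to 2.88 CPM in every injured group. *Cspg4*, a proteoglycan of pericytes and of oligodendrocyte precursors, was DE and higher in all 6 comparisons, with 2.88 CPM in NI and 49.3 and 51.6 CPM at 2 weeks after HS and FT, so it was left out of the sum after its values were seen. That choice decides the place of HS 2 weeks replicate 1, which had the highest sum of all 20 samples with *Cspg4* (114.1 CPM) and 23.2 CPM without it. The part of fibroblasts or mural cells in the collagen values was not tested.

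**Figure D4:**
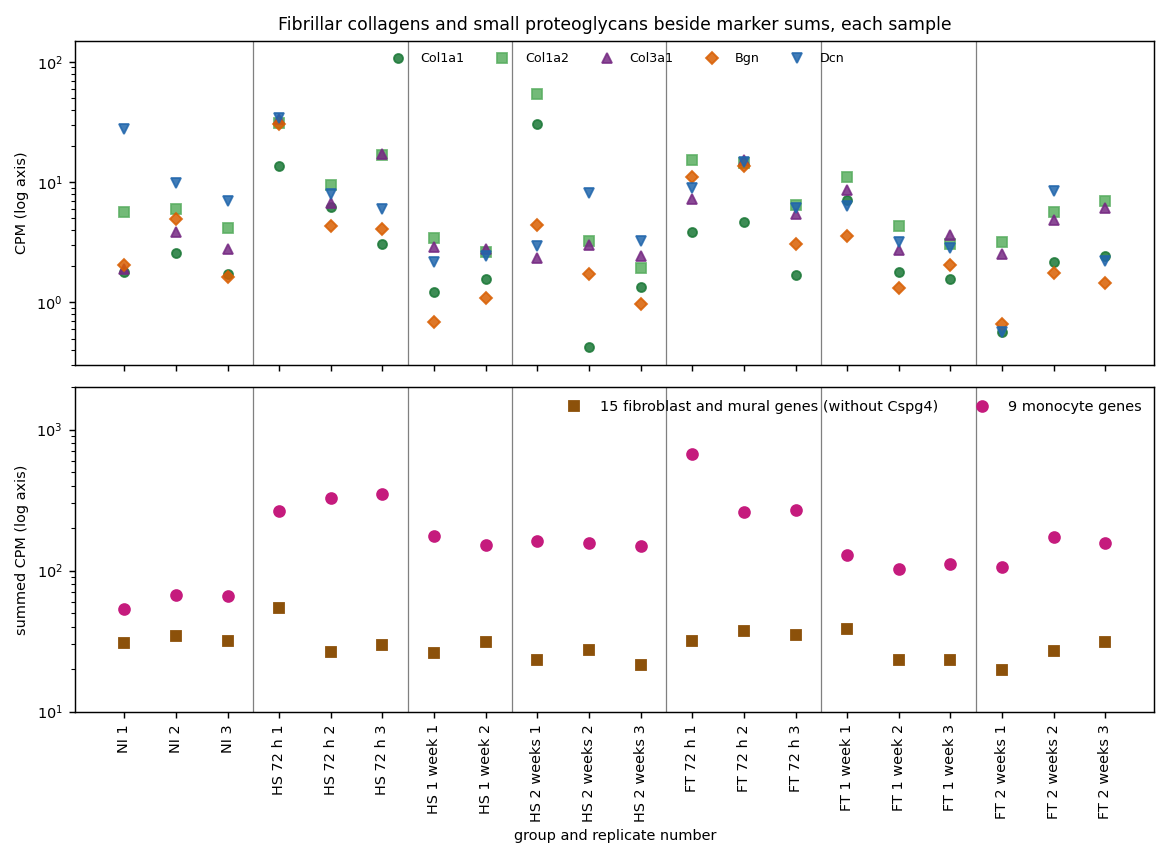
Upper panel, CPM of 3 fibrillar collagen genes and of *Bgn* and *Dcn* in each of the 20 samples, on a log axis. Lower panel, the summed CPM of 15 fibroblast and mural cell markers (without *Cspg4*) and of 9 monocyte markers in the same samples. HS 72 h replicate 1 has the highest *Col3a1*, *Bgn* and *Dcn* and the highest fibroblast sum (53.9 CPM), while HS 2 weeks replicate 1 has the highest *Col1a1* and *Col1a2* with a sum of 23.2 CPM without *Cspg4* and 114.1 CPM with it.

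*Col27a1* (chromosome 4, 63214004 to 63334991) fell at 72 h, the largest fall of the set at that time after both lesions. It had 119, 159 and 186 CPM in NI, 28.1, 40.05 and 50.02 CPM at 72 h after HS and 28.95, 40.3 and 39.2 CPM at 72 h after FT, and the groups were well apart. It fell by 1.97 after HS (SE 0.25, adjusted p = 4.83e-06) and by 2.07 after FT (SE 0.25, adjusted p = 2.79e-06) on the log2 scale. At 1 week it had 102 and 101 CPM after HS and 142, 73.04 and 73.7 CPM after FT. By 2 weeks it had 95.4, 92.4 and 104 and 71.2, 98.5 and 96.1 CPM, respectively. These later levels lay mostly below NI, with log2 differences of -0.58 to -0.79 that were not DE (adjusted p = 0.0526 to 0.381).

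*Col15a1*, a collagen of the basement membrane zone, had 15.9, 15.2 and 16.5 CPM in NI, 7.398, 9.61 and 6.97 CPM at 72 h after HS and 6.49, 8.47 and 6.68 CPM at 72 h after FT. It fell by 1.09 after FT (SE 0.23, adjusted p = 0.00153) on the log2 scale, while the difference after HS was just under the fold limit (-0.96, adjusted p = 0.00403). At 1 and 2 weeks it lay between 8.98 and 17.0 CPM and was not DE against NI, nor against 72 h.

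*Col11a2* and *Col19a1*, chains of a fibrillar and of a fibril-associated collagen, were low throughout. *Col11a2* had 1.85, 2.45 and 1.73 CPM in NI and 0.628, 0.6596 and 0.41 CPM at 72 h after HS, a fall of 1.23 on the log2 scale (SE 0.34, adjusted p = 0.00946) that was under the fold limit with 1 CPM added (0.94). At 72 h after FT it had 1.75, 0.292 and 1.51 CPM and was not DE. *Col19a1* had 1.97, 3.86 and 3.26 CPM in NI and 0.892, 1.22 and 1.44 CPM at 72 h after HS. Its call (log2 -1.04, SE 0.39, adjusted p = 0.0497) lay at the threshold and was lost in 16 of 20 fits that left out 1 sample each (adjusted p = 0.05004 to 0.174 in these), the exceptions being NI replicate 1, FT 1 week replicates 1 and 3 and FT 2 weeks replicate 1.

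*Nid2* fell at 1 week after FT and at 2 weeks after both lesions, and *Dcn* was called at 2 weeks after FT only. *Nid2* (chromosome 14, 19751265 to 19811787) encodes a linker of laminin and collagen IV. It had 11.1, 11.97 and 8.15 CPM in NI, 21.8, 10.6 and 13.9 CPM at 72 h after HS and 17.3, 5.84 and 13.8 CPM at 72 h after FT, which overlapped. At 1 week it had 7.49 and 5.65 CPM after HS and 2.52, 5.03 and 4.34 CPM after FT, and the difference after HS was not DE (log2 -0.62, adjusted p = 0.545). At 2 weeks it had 4.37, 4.49 and 3.86 CPM after HS and 3.46, 2.53 and 2.902 CPM after FT, all below NI. It fell by 1.32 at 1 week after FT (SE 0.33, adjusted p = 0.0152), by 1.19 at 2 weeks after HS (SE 0.33, adjusted p = 0.0379) and by 1.65 at 2 weeks after FT (SE 0.33, adjusted p = 0.00207) on the log2 scale.

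The fall of *Nid2* at 2 weeks after FT held under every alternative and without any single sample. That at 1 week after FT was lost without NI replicate 1 or 2 (log2 -1.26 and -1.22, adjusted p = 0.0603 and 0.0861), and that at 2 weeks after HS without any single sample of the compared groups (log2 -1.35 to -1.08, adjusted p = 0.0508 to 0.173). *Nid2* shares 437 exonic bases with *Rtraf* on the other strand, and reads there cannot be told apart.

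*Dcn*, a small proteoglycan that binds collagen fibrils, had 27.5, 9.91 and 6.91 CPM in NI and 0.562, 8.45 and 2.21 CPM at 2 weeks after FT, so the groups overlapped. Its call (log2 -2.13, SE 0.65, adjusted p = 0.0465) was lost in 12 of 20 fits that left out 1 sample, with adjusted p of 0.234 without NI replicate 1 and 0.299 without FT 2 weeks replicate 1 (log2 -1.57 and -1.39) and 0.0512 to 0.115 without any of the other 10 (NI replicate 2, HS 72 h replicate 2, both HS 1 week samples, HS 2 weeks replicate 3, FT 72 h replicates 1 and 3, FT 1 week replicates 2 and 3 and FT 2 weeks replicate 3). Without FT 2 weeks replicate 2 the fall was larger (log2 -2.93, adjusted p = 0.00585). No test on recovered reads called it. *Dcn* had 2.18 and 2.41 CPM at 1 week after HS and 6.37, 3.17 and 2.84 CPM at 1 week after FT, all below NI but not DE (adjusted p = 0.129 and 0.186), and at 2 weeks after HS 2.96, 8.12 and 3.26 CPM (adjusted p = 0.279). The border-associated macrophage markers, genes of macrophages at meninges and vessels, also had lower levels at 2 weeks, where 6 of 10 fell and 1 rose after HS, 6 of 10 fell and 2 rose after FT, and their sum was 398 to 429 and 453 to 575 CPM, against 692 to 732 CPM in NI. At 1 week after FT the border-associated macrophage sum was 891 to 1014 CPM. There 2 of its markers were higher and 3 lower, and the median log2 difference of the list was -0.70. Among the 11 astrocyte markers 5 fell and 1 rose at 72 h after HS, and 4 fell and 2 rose at 72 h after FT. At 1 week 5 fell after HS, and 6 fell and 1 rose after FT. At 2 weeks 8 fell after each lesion. The fibroblast and mural cell sum without *Cspg4* was 21.5 to 27.4 CPM at 2 weeks after HS, below its NI range of 30.5 to 34.6 CPM, and 19.8 to 31.3 CPM at 2 weeks after FT. The part of any of these cell types in the fall of *Nid2* and *Dcn* was not tested.

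No laminin chain and no chain of collagen IV was DE against NI at any time. The 11 laminin genes had group means of 0.575 to 19.1 CPM. *Lamc1*, the gamma chain shared by most laminins, had 10.5, 9.78 and 11.2 CPM in NI, 19.5, 16.7 and 12.5 CPM at 72 h after HS and 18.1, 15.2 and 23.95 CPM at 72 h after FT. No sample of these overlapped NI. Its log2 difference of 0.59 after HS (adjusted p = 0.0387) and 0.81 after FT (adjusted p = 0.00616) passed the adjusted p but not the fold limit. At 1 week *Lamc1* had 14.4 and 13.7 CPM after HS and 19.4, 18.4 and 15.6 CPM after FT (adjusted p = 0.0319 after FT, log2 0.73), and at 2 weeks 19.02, 16.5 and 14.1 and 17.4, 13.2 and 14.97 CPM. The 6 collagen IV genes had group means of 1.20 to 4.97 CPM, and their median log2 difference from NI lay between -0.42 and 0.12.

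*Col7a1*, the anchoring fibril collagen, had 12.1, 12.9 and 11.99 CPM in NI and 17.1, 22.5 and 21.5 CPM at 72 h after FT (log2 0.69, adjusted p = 0.0251, below the fold limit). It lay between 10.9 and 21.3 CPM in the other injured samples and was not DE. The transmembrane collagens (*Col13a1*, *Col17a1*, *Col23a1* and *Col25a1*) had group means of 0.940 to 3.40 CPM, and *Vcan*, *Lum*, *Fbn1*, *Fbln5*, *Nid1*, *Hspg2* and *Tnc* were not DE in any of the 6 comparisons. Within collagen VI, *Col6a1* was the only DE gene of 6, and the other 5 had group means within 0.972 to 5.87 CPM. The 52 genes outside the rule for values per sample, *Bgn* and *Col1a1* among them, had group means of 0.296 to 12.9 CPM. Their log2 differences from NI lay between -1.17 and 1.52, both for *Bgn*, and in 8 of 312 cases the adjusted p was under 0.05 without a change of 2-fold (limma).

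**Figure D5:**
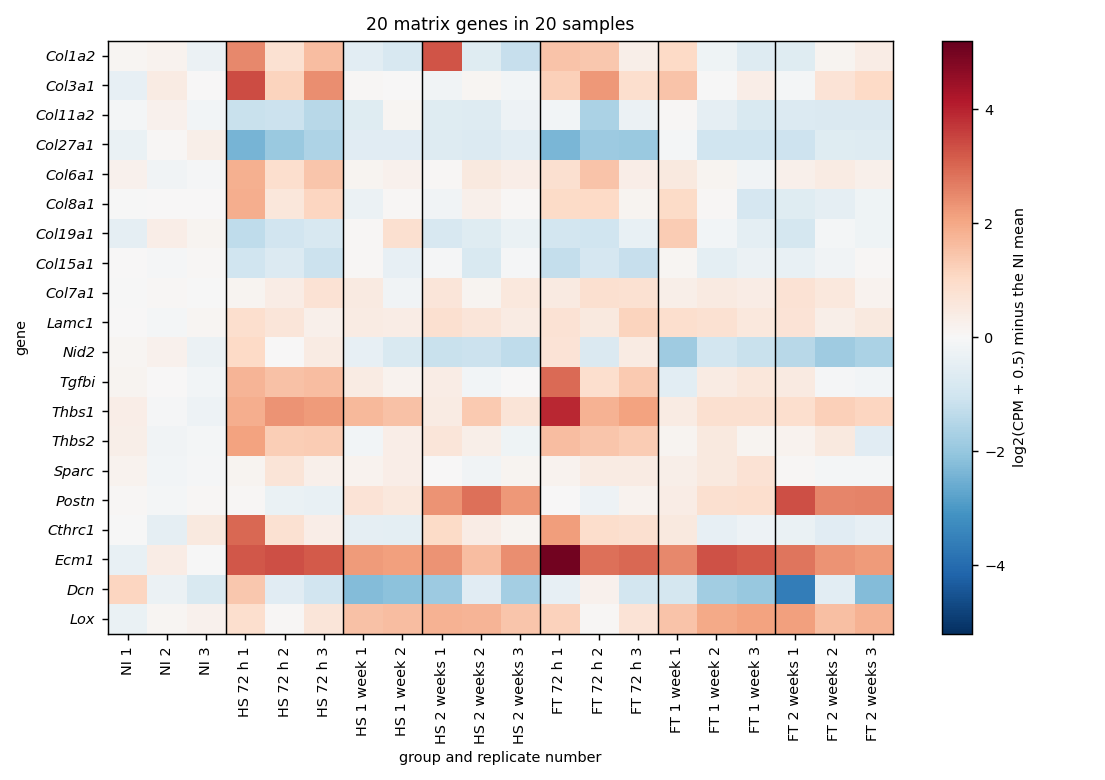
Log2(CPM + 0.5) of 20 matrix genes in each of the 20 samples, minus the mean of the 3 NI samples. Red is higher than NI and blue is lower. These are the 16 genes that were DE against NI and 4 others with a mean of at least 10 CPM. *Ecm1* is red in every injured sample, *Postn* at 2 weeks, and *Col27a1* is darkest blue at 72 h.

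The comparison of FT with HS asked whether the severity of the lesion set the level of matrix genes. No matrix gene was DE between FT and HS at any time in limma, and no gene of the 16810 was (0% called at each time). At an unadjusted p under 0.05 there were 2, 1 and 1 matrix genes in order of time, and 505, 724 and 438 of all genes. By edgeR's quasi-likelihood and likelihood ratio tests and by DESeq2 on recovered reads none of the 72 was called either. Those with an unadjusted p under 0.05 were *Col5a1* and *Col8a2* at 72 h (log2 -0.80 and -0.79), *Thbs1* at 1 week (-0.91) and *Tnc* at 2 weeks (-0.66), all lower after FT, and they were named after their values were seen.

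The intervals of the difference were wide. For 40 (72 h), 38 (1 week) and 49 (2 weeks) of the 72, the 95% interval of the log2 difference lay within 2-fold either way. For *Postn* at 2 weeks the difference was 0.32 (95% interval -0.18 to 0.81), and for *Lox* 0.16 (-0.46 to 0.77). For *Ecm1* it was 0.37 at 72 h (-0.43 to 1.18) and 0.82 at 1 week (-0.08 to 1.73), and these intervals reach past 2-fold. *Col3a1* differed by -0.85 at 72 h (-1.83 to 0.12). Whether the change with time differed between FT and HS was tested as an interaction. None of the 72 genes passed from 72 h to 1 week or from 72 h to 2 weeks (0% of all genes in each), with 2 and 2 at an unadjusted p under 0.05 against 661 and 435 of all genes.

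The times were then compared within each lesion. From 72 h to 1 week 8 of the 72 genes were DE after HS, 2 higher and 6 lower (6.03% of all genes called, 1.95% higher and 4.07% lower), and 6 after FT, 2 higher and 4 lower (3.44%, 0.827% higher and 2.62% lower). From 72 h to 2 weeks 10 were DE after HS, 3 higher and 7 lower (4.74%, 1.37% higher and 3.37% lower), and 9 after FT, 3 higher and 6 lower (3.81%, 1.13% higher and 2.68% lower). The count of 8 after HS fell to 1 without HS 72 h replicate 1 or HS 1 week replicate 1 and to 2 without HS 1 week replicate 2, and the count of 6 after FT to 3 without FT 72 h replicate 1.

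From 1 to 2 weeks *Postn* was the only matrix gene called after either lesion. It rose by 2.12 after FT (SE 0.24, adjusted p = 0.00011) and by 1.87 after HS (SE 0.27, adjusted p = 0.0094) on the log2 scale. Only 2 of all 16810 genes were DE between these times after HS (0.0119%, 0.00595% higher and 0.00595% lower) and 12 after FT (0.0714%, 0.0476% higher and 0.0238% lower). The call after HS was lost without HS 1 week replicate 1 or 2 or HS 2 weeks replicate 2 (log2 1.95, 1.80 and 1.68, adjusted p = 0.0881, 0.462 and 0.113). From 72 h to 2 weeks *Postn* rose by 2.72 after HS (adjusted p = 8.24e-08) and 2.83 after FT (adjusted p = 3.91e-08).

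*Col27a1* and *Tgfbi* returned towards NI. *Col27a1* rose again from 72 h to 2 weeks, by 1.33 after HS (adjusted p = 0.00128) and 1.28 after FT (adjusted p = 0.00214). *Tgfbi* fell by 1.53 after HS (adjusted p = 0.0082) and by 1.64 after FT (adjusted p = 0.00652), the latter 1.03 without FT 72 h replicate 1 (adjusted p = 0.0361). *Nid2* fell over the same span by 1.69 (adjusted p = 0.00201) and 1.77 (adjusted p = 0.00157), to levels below NI. *Lamb2*, the laminin beta chain of mature basement membranes, was named after its values were seen and was DE in this comparison alone, with 9.28, 6.78 and 10.7 CPM at 72 h and 3.898, 2.99 and 4.47 CPM at 2 weeks after HS (log2 -1.13, adjusted p = 0.0237), against 5.78, 5.79 and 4.89 CPM in NI. That call was lost without HS 72 h replicate 1 or 3 or HS 2 weeks replicate 1 or 2 (log2 -1.15 to -0.99, adjusted p = 0.0561 to 0.0938).

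The machinery around these genes was described from 3 lists. Of 31 genes of collagen assembly, secretion and cross-linking that were analysed, 2 rose at 72 h after HS and 3 after FT, and none was DE later. They were *Creb3l1*, a transcription factor of secretory load (3.12 CPM in NI, 10.02 and 9.94 CPM at 72 h, log2 1.52 and 1.52, adjusted p = 0.000409 and 0.000453), *P4ha2*, a collagen prolyl hydroxylase (log2 1.23 and 1.01, adjusted p = 0.00898 and 0.0312), and, after FT, *Ppib*, a foldase of procollagen (log2 1.05, adjusted p = 0.00153). Of 20 receptors for collagen and laminin only *Cd44*, best known as the hyaluronan receptor, was DE, and it was higher in all 6 comparisons (13.9 CPM in NI and 50.2 to 75.9 CPM after injury).

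Of 40 other core matrix genes, 6 were higher and 4 lower at 72 h after HS, and 6 and 3 at 72 h after FT. At 1 week 2 were higher and 1 lower after each lesion, and at 2 weeks the numbers were 3 and 2 for HS and 2 and 3 for FT. The 4 with the largest changes were *Spp1*, osteopontin (log2 4.45 to 5.60 over the 6 comparisons), *Fn1*, fibronectin (4.09 to 5.39), *Sparcl1*, an astrocyte relative of *Sparc* (-3.21 to -1.81), and *Mgp*, an inhibitor of calcification. The first 2 were higher and *Sparcl1* lower in all 6. *Mgp* was DE at 72 h only (log2 2.67 after HS and 2.05 after FT), where its mean was 13.4 and 6.35 CPM against 1.05 CPM in NI.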

How the data were processed

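RNA of 20 sorted samples was sequenced on polyA libraries. Per the labels and the study's methods, the authors aligned reads with TopHat2 2.0.9 to mm10, counted them per gene with HTSeq 0.5.4p3 (strand setting not given in the sources used here), kept genes with enough reads and normalised with edgeR 3.3.6. The deposited values are a normalised signal in CPM, on edgeR's effective library size. All 336200 values (100%) were whole multiples of 1 read within 0.001 of a step, so that reads could be recovered (3872918 to 34099232 per sample). The depth limits the precision of low genes.

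From these values, log2(CPM + 0.5) was fitted with limma 3.58.1 (trend, R 4.3.3) on 7 group means over 20 samples, with Benjamini-Hochberg adjustment over 16810 genes. Fold changes are on this scale, which understates the change of low genes. The 7 groups were taken from the labels. The study's methods call the replicates biological and name more mice than samples. Which mice entered which sample is not given in the sources used here, and p-values measure the spread between these samples. Tested on simulated data for HS 72 h versus NI (16810 genes), the fit recovered 73% of 200 changed genes with 7 false calls. The changed genes left out the lowest ones and changed by more than the fold limit, with the same dispersion for all genes and no outlying sample. The share recovered therefore does not cover low matrix genes or changes near 2-fold. Alternatives were tests of the recovered reads with DESeq2 1.42.0 and edgeR 4.0.16, other scalings, added values, filters and samples left out.

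The genes, lists and tests were chosen with earlier results of these data known. Genes were given per sample if DE against NI or at a mean of at least 10 CPM, and from each pathway list the 4 DE genes with the largest change were named. Positions are from GENCODE vM21 (GRCm38), where all 72 genes matched and 23 share exonic bases with another gene. Same-numbered samples deviated together in every one of at least 3 pairs for FT versus HS at 72 h (correlation 0.143 to 0.267). There no matrix gene was called with or without the replicate block. With only 2 pairs each, the correlations were 0.151 to 0.251 for HS 1 week versus 72 h. They were 0.102 to 0.182 for HS 2 weeks versus 1 week. The block raised the count of calls in the former, as given below. The correlations were also all positive, but as low as 0.025 and 0.005, for FT 2 weeks versus NI and for HS 2 weeks versus 72 h.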

Additional observations from a re-analysis of the deposited data

How the results depend on the processing

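No call of a matrix gene turned direction under any alternative. The median log2 difference of the 72 genes from NI did so at 1 week after HS, from 0.07 to -0.11 with every column scaled to 1 total. Of 68 calls of a matrix gene in a comparison, 48 held under all 11 alternatives that kept all samples, 37 with any 1 of the 20 samples left out, and 34 under both. With 4 samples that stood apart left out together, 55 held, an alternative chosen after seeing the data. FT 2 weeks replicate 1 was not among these 4. At 72 h after HS the count of 11 was 19 with no fold limit, 17 with edgeR's quasi-likelihood test, 19 with its likelihood ratio test and 18 with DESeq2. At 72 h after FT the count of 7 was 11 with 0.1 CPM added, 11 with every column scaled to 1 total and 12 with no fold limit. Against NI the count of 3 at 1 week after FT was 5 without the 4 samples, and that of 5 at 2 weeks after FT was 8 with 1 total. From 72 h to 1 week the count of 8 after HS was 13 with only the samples of both groups and 17 with the likelihood ratio test, and that of 6 after FT was 3 with only the samples of both groups and 3 without the 4 samples. The cause was not tested.

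With each sample left out in turn, the counts against NI ranged from 8 to 14, 0 to 3 and 3 to 4 after HS and from 6 to 10, 2 to 4 and 4 to 6 after FT at 72 h, 1 week and 2 weeks. They were 0 between FT and HS and for both interactions. From 72 h to 1 week they ranged from 1 to 11 after HS and from 3 to 7 after FT, from 72 h to 2 weeks from 7 to 12 and from 6 to 12, and from 1 to 2 weeks from 0 to 1 after HS and 1 to 1 after FT. Where 1 sample was left at 1 week after HS, it was assumed to vary like the other groups.

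With the replicate number as a block the counts against NI were 10, 2 and 4 for HS and 8, 3 and 5 for FT, those between FT and HS 0, and those between times 11, 11 and 1 after HS and 6, 9 and 1 after FT, with 0 for both interactions. In most comparisons the samples share only a number. The call of *Thbs1* at 1 week after HS was lost under the block (log2 1.54, adjusted p = 0.0652).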

Other observations

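Endothelial markers were also measured in the sorted samples, and their summed level differed within groups. The 15 genes summed to 114 to 191 CPM in NI, 46.5 to 115 CPM at 1 week after FT and 63.1 to 174 CPM at 2 weeks after FT. FT 1 week replicate 1 was the highest of all 20 samples for 17 of the 72 matrix genes. HS 72 h replicate 1 was the highest of all 20 samples for 12 of the 72 matrix genes, among them *Col3a1*, *Col5a2*, *Col6a3*, *Col12a1*, *Thbs2*, *Nid2* and *Fbn1*, which were named after their values were seen.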
